A study of Mus musculus with 43 samples.

Results

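Genes of meiotic crossover formation and DNA mismatch repair were followed in the testis of mice that lose the arginine methyltransferase gene Prmt1 in the germline. The 8 genes were matched by their GENCODE vM21 symbols to 8 of the 55401 gene identifiers in the expression tables. Of these, 6 act mainly in meiosis (Msh4, Msh5, Mlh3, Rnf212, Ccnb1ip1 and Hfm1) and 2 are general mismatch repair genes (Msh6 and Exo1). All 8 passed the filter on low counts in both RNA assays.

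During meiotic prophase, chromosomes are cut on purpose, and a minority of the breaks are repaired as crossovers, which hold homologous chromosomes together until they segregate. Msh4 and Msh5 form the heterodimer MutSγ, which stabilises recombination intermediates. Hfm1 is a DNA helicase of the same ZMM group of pro-crossover factors. Rnf212 and Ccnb1ip1 (also called Hei10) are RING-domain proteins that act with opposite effects on MutSγ at sites that will or will not become crossovers. Mlh3 is a MutL-type endonuclease subunit linked to crossover resolution. Msh6 recognises mismatches behind the replication fork in any dividing cell. Exo1 is an exonuclease that removes the mismatched strand and also takes part in crossover formation, so the division between both classes is not absolute.

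The study compared WT with Prmt1-dKO mice on a C57BL/6J background. In Prmt1-dKO mice, Ddx4-CreERT2 (the Ddx4 promoter also drives 5×HA-tagged Ddx4 and EGFP in germ cells) deletes Prmt1 lox/lox (floxed exons 4 and 5) once tamoxifen is given. The extract protocol states tamoxifen for 3 days. The injection methods of the study name only CreERT2 lox/lox mice, so whether WT mice of these groups received tamoxifen is not clear from them. Bulk RNA-seq covered 3 WT and 3 Prmt1-dKO testes at P7, and Smart-seq2 covered 2 WT and 2 Prmt1-dKO samples of EGFP-sorted spermatogonia at P7. CUT&Tag, which maps chromatin marks with an antibody-tethered transposase, gave 33 peak lists for 7 marks, 15 from WT at P7, 16 from WT at P14 and 2 (H4R3me2s) from Prmt1-dKO at P7.

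The labels limit these groups in several ways. The bulk libraries are labelled spermatogonia, while their protocol describes RNA of the whole testis. The sorted controls are labelled WT, while the sorting protocol names heterozygous Ddx4-GFP-CreERT2 Prmt1 +/lox mice. CUT&Tag used strained cell suspensions of seminiferous tubules, and the P14 lists are titled spermatogonia but carry the cell type spermatocyte. The peak names of the 3 lists of H4R3me2s labelled P14 begin with SD17, while those of the other P14 lists begin with P14, so the age of these 3 lists rests on their labels alone. The study calls its replicates biological but does not tie each library to an animal, so p-values measure the spread between these samples.

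In the GENCODE vM21 annotation of GRCm38 (mm10), the meiotic members are Msh4 (ENSMUSG00000005493.15) at chr3:153857149-153906138 (minus strand), Msh5 (ENSMUSG00000007035.15) at chr17:35028605-35046745 (minus strand), Mlh3 (ENSMUSG00000021245.15) at chr12:85234520-85270599 (minus strand), Rnf212 (ENSMUSG00000055385.12) at chr5:108729290-108774982 (minus strand), Ccnb1ip1 (ENSMUSG00000071470.4) at chr14:50789248-50807732 (minus strand) and Hfm1 (ENSMUSG00000043410.16) at chr5:106840192-106926321 (minus strand). The general members are Msh6 (ENSMUSG00000005370.4) at chr17:87975062-87990892 (plus strand) and Exo1 (ENSMUSG00000039748.11) at chr1:175880581-175913489 (plus strand). All 8 are protein-coding genes with 2 to 12 annotated transcripts. Msh6 overlaps Fbxo11 on the opposite strand at its end, and Ccnb1ip1 overlaps Rpph1 on its own strand, so reads shared there could be assigned to either gene.

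The bulk libraries held 12396345 to 16598249 counts and the Smart-seq2 libraries 15610392 to 18547103. Prmt1 itself had 237, 219 and 247 CPM (counts scaled to library size) in the WT testes and 146, 199 and 158 CPM in the Prmt1-dKO testes, a fall by 0.49 on the log2 scale (-0.49, SE 0.13, FDR = 0.0334, edgeR). In sorted cells it had 216 and 149 CPM in WT and 112 and 86.5 CPM in Prmt1-dKO (FDR = 0.133, edgeR). Every Prmt1-dKO library was below every WT library in both assays, as their labels have it. Whole testes held markers of somatic cells, and these moved with genotype. The summed TPM of 6 Leydig cell markers was 624 to 724 in WT and 164 to 185 in Prmt1-dKO, that of 7 peritubular markers was 1320 to 1430 and 525 to 970, and that of 13 Sertoli cell markers was 7140 to 7740 and 4980 to 5450. Macrophage markers summed to 130 to 152 and 154 to 190 TPM, and 7 endothelial markers to 105 to 108 and 110 to 136 TPM. In sorted cells, all 9 macrophage markers were at 0 in both WT libraries, while 7 of the 9 were above 0 in Prmt1-dKO with a summed TPM of 59.8 to 65.3 (Adgre1 and Cd163 stayed at 0). The 12 markers of undifferentiated spermatogonia summed to 175 to 209 TPM in sorted WT and 326 to 367 TPM in sorted Prmt1-dKO cells. The 10 germ cell markers, which include Ddx4 and Dazl, summed to 752 to 905 TPM in WT testes and 634 to 832 TPM in Prmt1-dKO testes, and to 2640 to 2700 TPM in sorted WT and 1730 to 1830 TPM in sorted Prmt1-dKO cells, where 7 of the 10 nevertheless had a positive log2 fold change after TMM scaling, with a median of 0.13. Sertoli cell markers summed to 310 to 334 TPM in sorted WT and 446 to 631 TPM in sorted Prmt1-dKO cells.

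Levels can be compared between genes only per length, in TPM (transcripts scaled to a fixed library sum), as scaled by the authors within each library. In WT testes, Msh6 was highest at 69.5 ± 5.28 TPM, followed by Exo1 at 38.5 ± 7.02 TPM and Mlh3 at 12 ± 0.497 TPM (SD, n = 3 each). The WT libraries of these 3 genes did not overlap. Ccnb1ip1 (8.17 ± 0.715 TPM), Rnf212 (5.58 ± 2.02 TPM) and Msh5 (4.62 ± 2.29 TPM) came next, and neighbours among these 3 overlapped. Hfm1 (2.11 ± 0.295 TPM) and Msh4 (0.943 ± 0.219 TPM) were lowest. The order in Prmt1-dKO testes was the same except that Rnf212, at 10.5 ± 1.21 TPM, stood above Ccnb1ip1 in every library and overlapped with Mlh3.

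In sorted WT spermatogonia, the order of the genes was another one. Exo1 was highest at 84.7 ± 3.3 TPM (SD, n = 2). Msh5 (54.7 ± 16.9 TPM), Msh6 (36.75 and 43.25 TPM), Hfm1 (38.1 ± 36.6 TPM) and Ccnb1ip1 (25.7 ± 20.2 TPM) followed, and neighbours in this order overlapped. Hfm1 and Ccnb1ip1 had a wide spread between the 2 WT libraries, 63.99 and 12.24 TPM for Hfm1 and 40.03 and 11.41 TPM for Ccnb1ip1. Rnf212 (8.66 ± 0.827 TPM) and Msh4 (8.3 ± 1.57 TPM) overlapped, and Mlh3 was lowest at 4.13 ± 1.8 TPM. Sorted Prmt1-dKO cells again had Exo1 highest, at 44.2 ± 4.43 TPM, and Msh4 lowest by mean, at 4.0 ± 0.629 TPM. There Msh4 (3.56 to 4.45 TPM) overlapped with Mlh3 (4.42 to 5.95 TPM).

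**Figure D1:**
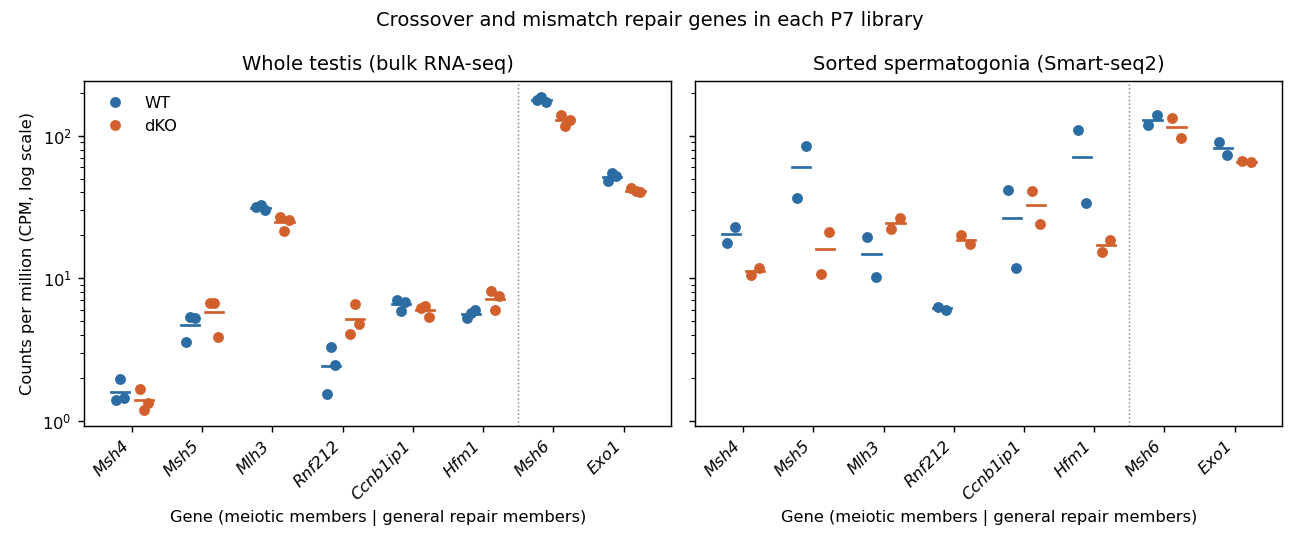
CPM (counts scaled to library size by TMM, log axis) of each gene in every P7 library, with WT in blue, Prmt1-dKO in orange and a line at each mean; the left panel shows whole testes (n = 3 per genotype) and the right panel sorted spermatogonia (n = 2 per genotype). Rnf212 is the gene whose Prmt1-dKO points lie above all WT points with the widest gap in both panels, and the 2 sorted WT points of each of Ccnb1ip1, Hfm1 and Msh5 lie far apart.

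The first comparison asked whether the genes differed between Prmt1-dKO and WT testes. The quasi-likelihood test of edgeR was applied to the expected counts. Calls required an FDR (Benjamini-Hochberg) below 0.05 together with a change of at least 2-fold. Of the 8 genes, 1 was called higher (Rnf212) and 0 were called lower, while 5.32% and 1.78% of the 16554 genes tested were called higher and lower. DESeq2 also called 1 of the 8 higher, the same gene, and 0 lower, with backgrounds of 6.34% and 1.37%. Every Prmt1-dKO library lay above every WT library for 2 of the 8 genes, where 20.9% of all genes did so, and below for 3 of the 8, where 19.9% of all genes did so. At an FDR below 0.05 and any fold, Msh6 was lower, as were 8.51% of all genes.

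Among the meiotic members, Rnf212 rose. It had 1.54, 3.31 and 2.45 CPM in the WT libraries and 4.09, 6.61 and 4.76 CPM in the Prmt1-dKO libraries. The Prmt1-dKO values were all above the WT values, on 23 to 83 counts per library. The log2 fold change was 1.07 (SE 0.321, FDR = 0.0471, edgeR; 95% interval 0.35 to 1.80), and DESeq2 gave an adjusted p of 0.033. The FDR passed the threshold narrowly: with each of the 6 libraries left out in turn, the log2 fold change stayed between 0.81 and 1.34, but the FDR was between 0.0522 and 0.156. Rnf212 overlaps 1700047L14Rik, an annotated antisense gene, and the sources do not state that strand was used in counting.

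Neither subunit of MutSγ passed the test in whole testes. Msh4 had 1.4, 1.96 and 1.45 CPM in WT and 1.68, 1.19 and 1.33 CPM in Prmt1-dKO, on only 15 to 32 counts per library. The genotypes overlapped, with a log2 fold change of -0.19 (SE 0.322, FDR = 0.711, edgeR; 95% interval -0.92 to 0.53). Msh5 had 3.55, 5.39 and 5.28 CPM in WT and 6.71, 6.69 and 3.87 CPM in Prmt1-dKO, so the third Prmt1-dKO library fell among the WT values. Its log2 fold change was 0.27 (SE 0.277, FDR = 0.527, edgeR; 95% interval -0.35 to 0.90). A 2-fold change of either gene in either direction lies outside these intervals, which are those of the main fit. DESeq2 gave Msh4 a log2 fold change of -0.21 with a wider SE of 0.479.

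Mlh3, the endonuclease subunit, had 31.4, 32.5 and 30.1 CPM in WT and 26.9, 21.6 and 25.6 CPM in Prmt1-dKO. The groups did not overlap in CPM, but they did in TPM (11.49 to 12.45 in WT and 9.32 to 12.99 in Prmt1-dKO), and the log2 fold change of -0.34 (SE 0.123, FDR = 0.0834, edgeR) missed the threshold. Hfm1 had 5.28, 5.7 and 5.97 CPM in WT and 8.1, 5.97 and 7.48 CPM in Prmt1-dKO, which meet at 5.97 when rounded, with the Prmt1-dKO value the higher. In TPM the groups overlapped, at 1.85 to 2.43 in WT and 2.42 to 3.74 in Prmt1-dKO. Its log2 fold change was 0.35 (SE 0.189, FDR = 0.235, edgeR). Ccnb1ip1 overlapped between the genotypes, at 7.09, 5.88 and 6.85 CPM in WT and 6.2, 6.37 and 5.39 CPM in Prmt1-dKO (log2 fold change -0.14, SE 0.182, FDR = 0.622, edgeR).

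On the CPM scale, both general repair genes were lower in every Prmt1-dKO testis than in every WT testis, though by less than 2-fold. Msh6 had 179, 188 and 172 CPM in WT and 140, 117 and 130 CPM in Prmt1-dKO, on at least 1467 counts per library. Its log2 fold change was -0.47 (SE 0.107, FDR = 0.0164, edgeR), a WT level 1.39 times that of Prmt1-dKO. The direction held with each library left out, but the FDR rose to between 0.0537 and 0.0902 without each WT library in turn. Exo1 had 48.5, 54.7 and 52 CPM in WT and 43.1, 40.7 and 40.1 CPM in Prmt1-dKO, a log2 fold change of -0.32 (SE 0.104, FDR = 0.0584, edgeR; adjusted p = 0.0453 with DESeq2). On the TPM scale Exo1 overlapped, at 31.54 to 45.58 TPM in WT and 23.71 to 34.23 TPM in Prmt1-dKO.

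Genes of DNA replication were lower beside Msh6 and Exo1 in testes, 11 of 15 at an FDR below 0.05 (edgeR) at any fold, where 8.51% of all genes were. All 15 genes of this S phase list (Mcm2 to Mcm7, Pcna, Rrm1 and others) had a negative log2 fold change in testes, with a median of -0.52 against 0.02 over all genes tested, and 13 of the 15 did not overlap between the genotypes and were lower, where 19.9% of all genes did so. In sorted cells, 7 of the 15 had a positive and 8 a negative log2 fold change, with a median of -0.20. Their summed level was 1420 to 1500 TPM in WT testes and 862 to 1000 TPM in Prmt1-dKO testes, and 1810 to 1910 TPM in sorted WT and 1380 to 1390 TPM in sorted Prmt1-dKO cells. Their part in the lower Msh6 and Exo1 was not tested. In bulk RNA, fewer cells of a type and less RNA per cell cannot be told apart.

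**Figure D2:**
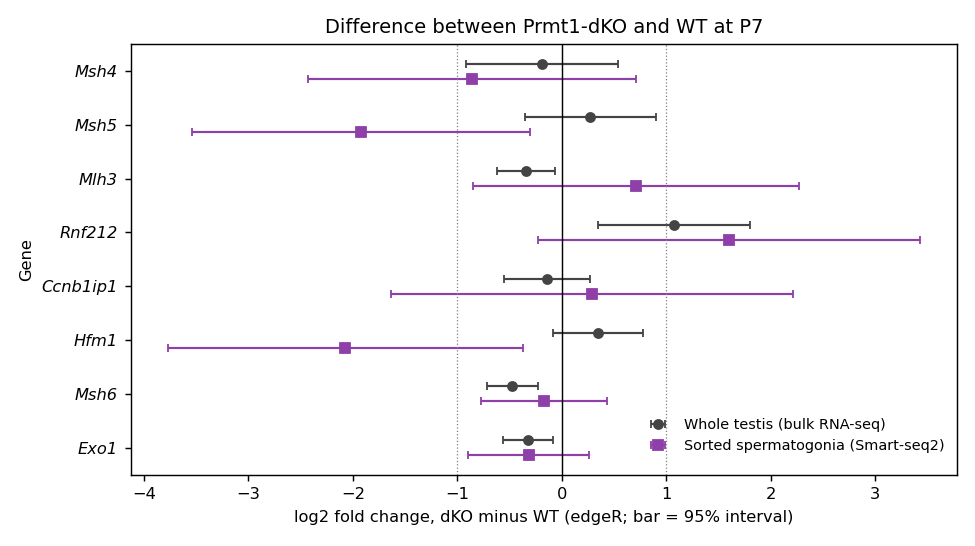
log2 fold change of each gene, Prmt1-dKO minus WT at P7, from edgeR with 95% intervals, for whole testes (circles, n = 3 per genotype) and sorted spermatogonia (squares, n = 2 per genotype); dotted lines mark a 2-fold change. The intervals of Rnf212, Mlh3, Msh6 and Exo1 leave out 0 in whole testes and those of Msh5 and Hfm1 leave out 0 in sorted cells, before adjustment for the number of genes tested.

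In sorted spermatogonia, the same comparison had 2 libraries per genotype and a biological coefficient of variation of 0.767, against 0.155 in testes. With edgeR, 0% of the 16443 genes tested were called higher and 0% lower, so 0 of the 8 were called in either direction. Without adjustment (p below 0.05, 2-fold), 2267 genes were higher and 678 lower. DESeq2 called 2 of the 8 genes lower (Msh5 and Hfm1), with a background of 3.93%, and 0 of the 8 higher, with a background of 7.33%. Every Prmt1-dKO library lay above every WT library for 2 of the 8, where 36.3% of all genes did so, and below for 4 of the 8, where 20.3% of all genes did so.

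Both MutSγ genes had lower values in sorted Prmt1-dKO cells. Msh5 had 36.5 and 85 CPM in WT and 10.7 and 21.3 CPM in Prmt1-dKO. The genotypes did not overlap, and the WT mean was fitted at 3.79 times the Prmt1-dKO mean (log2 fold change -1.92, SE 0.611, FDR = 0.149 with edgeR; adjusted p = 0.0267 with DESeq2). It was -1.17 without WT replicate 2 and -2.53 without Prmt1-dKO replicate 2. Msh4 had 17.8 and 23 CPM in WT and 10.6 and 11.8 CPM in Prmt1-dKO (log2 fold change -0.86, SE 0.594, FDR = 0.493, edgeR). These values are on 165 to 1625 counts per library for the pair.

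Hfm1 had the lowest fold change of the 8 in the main fit. It had 109 and 33.7 CPM in the WT libraries and 15.4 and 18.7 CPM in the Prmt1-dKO libraries. The groups did not overlap, but the first WT library was far above the second. The log2 fold change was -2.07 (SE 0.642, FDR = 0.142 with edgeR; adjusted p = 0.0149 with DESeq2), and it was -0.97 without WT replicate 1 and -2.67 without WT replicate 2. Msh5 was lower than Hfm1 without WT replicate 1 (-2.39) and without Prmt1-dKO replicate 2 (-2.53 against -2.24). With a replicate block and all libraries, Msh5 was also lower (-1.88 against -1.84).

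Rnf212 and Mlh3 had higher CPM in sorted Prmt1-dKO cells. Rnf212 had 6.31 and 6.02 CPM in WT and 20.1 and 17.3 CPM in Prmt1-dKO, with replicates close to each other and a fitted ratio of 3.03. Its log2 fold change was 1.60 (SE 0.691, FDR = 0.264 with edgeR), and DESeq2 gave an adjusted p of 0.0511, or 0.00452 after the filter on low counts, a setting chosen after seeing the data. Mlh3 had 19.5 and 10.2 CPM in WT and 22 and 26.7 CPM in Prmt1-dKO (log2 fold change 0.71, SE 0.59, FDR = 0.58, edgeR), and overlapped in TPM, at 5.41 and 2.86 in WT and 4.42 and 5.95 in Prmt1-dKO. The Mlh3 log2 fold change was 1.27 without WT replicate 1 and 0.34 without WT replicate 2. Ccnb1ip1 had 41.5 and 11.9 CPM in WT and 41.3 and 24 CPM in Prmt1-dKO, which overlapped (log2 fold change 0.29, SE 0.728, FDR = 0.883, edgeR). Its fold change turned negative without WT replicate 2 (-0.33) or without Prmt1-dKO replicate 1 (-0.12).

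Neither general repair gene passed the test in sorted cells. Msh6 had 119 and 139 CPM in WT and 133 and 96.8 CPM in Prmt1-dKO, which overlapped (log2 fold change -0.17, SE 0.229, FDR = 0.764, edgeR; 95% interval -0.77 to 0.44). Its fold change was 0.02 without Prmt1-dKO replicate 2. Exo1 had 90.4 and 73.4 CPM in WT and 66 and 65.3 CPM in Prmt1-dKO (log2 fold change -0.32, SE 0.219, FDR = 0.49, edgeR; 95% interval -0.90 to 0.26). On the TPM scale, which is not adjusted by TMM, Msh6 did not overlap between the genotypes in sorted cells, at 36.75 and 43.25 TPM in WT and 33.32 and 27.24 TPM in Prmt1-dKO. Exo1 did not overlap on that scale either, at 82.41 to 87.08 TPM in WT and 41.08 to 47.35 TPM in Prmt1-dKO.

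Other meiotic genes had lower values beside Msh5 and Hfm1 in sorted cells. Of 16 meiotic prophase genes such as Stra8, Sycp3 and Dmc1, 15 were tested and all 15 had a negative log2 fold change, with a median of -0.996 against 0.15 over all genes tested. With edgeR 0 of the 15 were called, while DESeq2 called 9 of the 15 lower, against 3.93% of all genes. The summed level of the list was 2400 to 2410 TPM in sorted WT and 1130 to 1140 TPM in sorted Prmt1-dKO cells, while the macrophage and undifferentiated spermatogonial markers given above were higher in Prmt1-dKO. The part of these shifts in the values of Msh5, Hfm1, Msh4 and Rnf212 was not tested. In whole testes, 13 of the 16 meiotic prophase genes had a positive log2 fold change, with a median of 0.27.

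Whether the genotype difference itself differed between sorted cells and testes was tested as an interaction over 19608 genes in edgeR, and 19% of all genes had an FDR below 0.05. Of the 8 genes, 1 did. For Hfm1, the log2 fold change in sorted cells minus that in testes was -2.34 (SE 0.63, FDR = 0.0327, edgeR). The value was -1.23 without sorted WT replicate 1 and -2.94 without sorted WT replicate 2, with 1 sorted WT library left in each fit. Msh5 had a difference of -2.11 (SE 0.665, FDR = 0.0585), and Mlh3 one of 1.14 (SE 0.419, FDR = 0.0941). The other 5 genes had FDR values of at least 0.273. For Rnf212, with higher values in Prmt1-dKO in both assays, the difference was 0.61 (SE 0.572, FDR = 0.538). The assay and the cell population change together here and cannot be told apart.

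The meiotic members were then set against the general members within each library, as the mean log2 CPM of the 6 minus that of the 2. This contrast compares libraries, not levels between genes. In whole testes it was -4.29, -4.09 and -4.10 in WT and -3.59, -3.50 and -3.69 in Prmt1-dKO, so all Prmt1-dKO libraries were higher. Of the meiotic members, Rnf212, Hfm1 and Msh5 had positive fold changes and Mlh3, Msh4 and Ccnb1ip1 negative ones, and only Rnf212 passed the test. Msh6 and Exo1 had negative ones. The median log2 fold change was 0.06 for the meiotic members and -0.40 for the general members. In sorted cells the contrast was -1.95 and -2.40 in WT and -2.39 and -2.03 in Prmt1-dKO, which overlapped, and the medians were -0.28 and -0.24. In sorted cells the meiotic members split into 3 with negative and 3 with positive fold changes. No test is given for these summaries, since the genes were chosen with results of these data known.

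**Figure D3:**
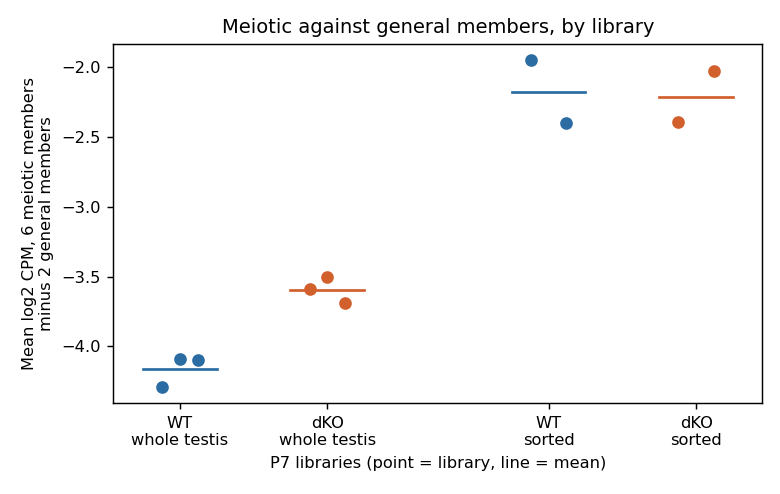
Mean log2 CPM of the 6 meiotic members minus that of the 2 general repair members in each P7 library (point) with the group mean (line), for whole testes and sorted spermatogonia. In whole testes the 3 Prmt1-dKO libraries, between -3.69 and -3.50, lie above the 3 WT libraries, between -4.29 and -4.09, and in sorted cells the genotypes overlap.

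Other genes of the same pathways were taken from lists. Of 20 other crossover genes, 1 was called higher and 0 lower by edgeR in testes, near the background of 5.32% higher, and the median log2 fold change was -0.18. That gene was Mcmdc2, an MCM-domain protein needed for meiotic recombination, with a log2 fold change of 1.65 (SE 0.429, FDR = 0.0282, edgeR). It had 8, 8 and 19 counts in the WT testes and 23, 37 and 38 in the Prmt1-dKO testes. In sorted cells it had 25 and 91 counts in WT and 338 and 278 in Prmt1-dKO, and edgeR fitted a log2 fold change of 2.73 (SE 0.984, FDR = 0.192; adjusted p = 0.0314 with DESeq2). DESeq2 called 1 of the 20 higher and 0 lower in sorted cells, against 7.33% and 3.93% of all genes. The median there was -0.48, and 15 of the 20 were negative.

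Of 19 other mismatch repair genes, 0 were called by edgeR in either direction and assay, where the backgrounds are those given above. The medians were -0.16 in testes and -0.30 in sorted cells. In testes, 4 of the 19 were lower at an FDR below 0.05 but by less than 2-fold (8.51% of all genes were lower at that FDR and any fold), and 7 of the 19 did not overlap and were lower, where 19.9% of all genes did so. DESeq2 called 2 of the 19 lower in sorted cells, against 3.93% of all genes. Pms2, a MutL-type endonuclease of post-replicative repair, had 1654 and 2468 counts in sorted WT and 740 and 600 in sorted Prmt1-dKO cells, and edgeR fitted a log2 fold change of -1.30 (SE 0.292, FDR = 0.0774; adjusted p = 0.00286 with DESeq2). Msh3, which takes part in recognising larger loops, had 879 and 878 counts in sorted WT and 373 and 342 in sorted Prmt1-dKO cells (log2 fold change -0.97, SE 0.328, FDR = 0.169 with edgeR; adjusted p = 0.0302 with DESeq2).

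The genes whose pattern was most like the mean of the 6 meiotic members were ranked by Pearson's r over the 10 libraries, with log2 CPM centred within each assay. Among 14163 genes, Gm26724 (r = 0.956), Stab2 (r = 0.923), Nek8 (r = 0.922), Dmrtc2 (r = 0.915) and Slu7 (r = 0.914) ranked highest. The 10 libraries share genotype and assay structure, so these values describe likeness only.

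CUT&Tag peaks gave a second readout of the 8 genes. A gene was counted as marked in a list when a peak summit lay within 3000 bp of any of its transcript starts. The lists of H3K4me3, a mark of active promoters, held peaks with −log10 p of at least 3.41, while those of the other 6 marks reached down to 2.30, so low values there are weak peaks. Peak lists give no read depth, and a missing peak is not evidence that a mark was absent.

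At P14, all 8 genes carried H3K4me3 and H3K27ac, a mark of active promoters and enhancers, in every list. A peak in every P14 list was found for 62.9% of 22028 protein-coding genes for H3K4me3 and for 48.8% for H3K27ac. At P7, 5 of the 8 (Mlh3, Ccnb1ip1, Hfm1, Msh6 and Exo1) carried H3K4me3 in both lists, against 60.5% of protein-coding genes, and 4 of the 8 (Msh4, Mlh3, Ccnb1ip1 and Exo1) carried H3K27ac in both lists, against 30.9%.

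By summit, Msh4 and Msh5 had a promoter peak of H3K4me3 in both P14 lists and in no P7 list, a pattern found for 2.01% of protein-coding genes. The reverse pattern was found for 0 of the 8 and for 0.459% of protein-coding genes. For Msh4, the P14 peaks had −log10 p of 17.84 and 21.32 with fold enrichments of 6.23 and 6.90 over the local background, and their summits lay 391 and 316 bp from a start. At P7 the nearest H3K4me3 summits lay 6668 and 6538 bp away from any Msh4 start, and the start of the neighbour Rabggtb lies 5895 bp away. H3K27ac was nevertheless called at Msh4 in both P7 lists, with −log10 p of 4.95 and 5.73.

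For Msh5, the P14 peaks of H3K4me3 had −log10 p of 11.19 and 10.08, and their summits lay 150 and 145 bp from a start. At P7 the nearest summits lay 3608 and 3632 bp away. Starts of the neighbours Sapcd1 and Clic1 lie 1852 and 3221 bp from one of Msh5, so the windows of these genes overlap. Msh5 and Rnf212 also carried H3K27ac in both P14 lists and in no P7 list, a pattern found for 7.89% of protein-coding genes. Msh5 alone of the 8 showed it for both marks, as did 0.39% of protein-coding genes. This rests on the summit rule. With whole peaks in place of summits, the rise in H3K4me3 over the 8 genes was 2.0 instead of 2.5. Of the genes unmarked at P7, Msh5 had the nearest H3K4me3 summits, so its pattern may not hold with whole peaks.

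Rnf212 was between these states. Its H3K4me3 peak was called in both P14 lists (−log10 p 11.79 and 11.25) and in 1 of the 2 P7 lists (7.13). Hfm1 carried H3K4me3 in all 4 lists, with −log10 p of 19.0 and 9.79 at P7 and 22.67 and 32.5 at P14, and H3K27ac in 1 of 2 lists at P7. Mlh3 also carried H3K4me3 in all 4 lists (−log10 p 13.95 to 30.3).

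Of the general genes, Msh6 had the highest −log10 p of H3K4me3 among the 8 in each list, 41.31 and 40.1 at P7 and 44.24 and 54.95 at P14, though Exo1 had the higher fold enrichment in each (7.75 to 9.21 against 6.05 to 7.94). Exo1 had −log10 p of 26.92 and 29.46 at P7 and 33.48 and 33.98 at P14. The Ccnb1ip1 peaks, between 18.64 and 28.42, lay at the farther of its 2 annotated starts, which is 35 bp from a start of Rpph1, the RNA of RNase P, and 109 bp from one of Parp2. These 3 genes cannot be told apart by the peaks.

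**Figure D4:**
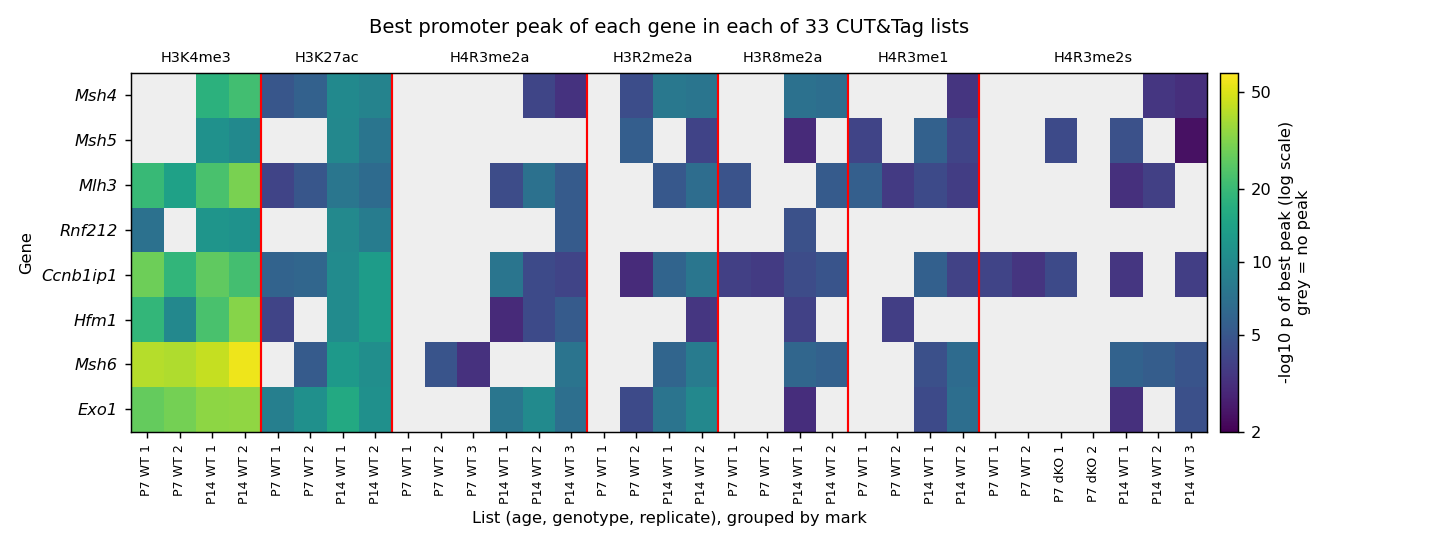
MACS2 −log10 p (colour, log scale) of the best peak with its summit within 3000 bp of a start of each gene (rows) in each of the 33 lists (columns, grouped by mark), grey where no peak was called. H3K4me3 and H3K27ac are filled for all 8 genes at P14, while Msh4 and Msh5 are grey for H3K4me3 at P7.

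The arginine marks were called at few of the 8 genes at P7. In every list of a mark, H4R3me2a was found at 0 of the 8 (background 4.25%), H3R2me2a at 0 (10.9%), H3R8me2a at 1 (Ccnb1ip1, 9.67%), H4R3me1 at 1 (Mlh3, 10.8%) and H4R3me2s at 1 (Ccnb1ip1, 17.7%). At P14, the same counts were 4 for H4R3me2a (Mlh3, Ccnb1ip1, Hfm1 and Exo1, background 29.6%), 5 for H3R2me2a (background 51.1%), 3 for H3R8me2a (background 32.9%), 5 for H4R3me1 (background 29.8%) and 1 for H4R3me2s (Msh6, background 16.3%).

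Per list, the mean number of the 8 genes marked by H4R3me2a, the asymmetric mark deposited by Prmt1, was 0.67 at P7 and 5.33 at P14, with 0 to 1 in the 3 P7 lists and 4 to 7 in the 3 P14 lists. Protein-coding genes moved in the same direction, with a mean share marked of 19.8% at P7 and 48.2% at P14. The P14 lists were also longer, and with lists cut to equal length the H4R3me2a means were 0.67 and 3.33. For the symmetric H4R3me2s they were 1.0 at P7 and 4.33 in the lists labelled P14, whose peak names begin with SD17, or 0.5 and 2.67 at equal length, while the mean share of protein-coding genes marked was 33.3% and 35.8%. The mean rose from P7 to P14 for each of the 7 marks, by 2.5 (H3K4me3) to 4.67 genes (H4R3me2a), and for none of the 7 did the numbers in the P7 and P14 lists overlap. The share of protein-coding genes marked did not overlap either, for each mark but H4R3me2s. The spread was wide for H3R2me2a, with 0 and 4 genes in the P7 lists and 5 and 7 in the P14 lists, and for H3R8me2a, with 2 and 1 genes at P7 and 7 and 4 at P14. With a list left out, their rise of 4.0 was 2.0 (H3R2me2a, without P7 replicate 1) to 6.0 and 2.5 (H3R8me2a, without P14 replicate 1) to 5.5.

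Across the 11 P7 lists of arginine marks in WT and the 12 at P14, Msh4 was marked in 1 and 9, Msh5 in 2 and 6, Mlh3 in 3 and 10, Hfm1 in 1 and 5, Ccnb1ip1 in 5 and 11, and Rnf212 in 0 and 2. Msh6 was marked in 2 and 10 of them, and Exo1 in 1 and 10. Rnf212 therefore had the fewest of the 8. Of protein-coding genes, 19.0% to 33.6% were marked in each of these P7 lists and 31.5% to 61.3% in each of these P14 lists. The 12 lists include the 3 of H4R3me2s whose peak names begin with SD17. Some of these peaks lay at other starts inside the genes: 5 of the 8 best peaks of Msh5 and 6 of the 13 of Mlh3 were nearest to a start more than 3000 bp from that of the P14 H3K4me3 peak, as were 3 of the 10 of Msh4, 2 of the 6 of Hfm1 and 1 of the 16 of Ccnb1ip1. The H4R3me2a peak of Hfm1 in P14 replicate 1 is among these. By class, the general genes were marked in a larger share of gene and list pairs than the meiotic genes at P14 for H3R2me2a (100% against 66.7%), H4R3me1 (100% against 58.3%) and H4R3me2s (83.3% against 44.4%), and in the same share for H4R3me2a (66.7% each), while for H3R8me2a it was 3 of 4 general against 8 of 12 meiotic pairs. The mean share of protein-coding genes marked at P14 was 59.7% for H3R2me2a, 41.7% for H4R3me1, 35.8% for H4R3me2s and 48.2% for H4R3me2a, and 44.8% and 45.2% in the H3R8me2a lists. At P7 the order was the other way for H3R8me2a (0 of 4 general against 3 of 12 meiotic pairs), H4R3me1 (0% against 33.3%) and H4R3me2s (0% against 16.7%), equal for H3R2me2a (1 of 4 and 3 of 12), and 33.3% against 0% for H4R3me2a. The mean share of protein-coding genes marked at P7 was 21.2% for H3R8me2a, 23.7% for H4R3me1, 33.3% for H4R3me2s, 24.2% for H3R2me2a and 19.8% for H4R3me2a. With 2 general genes, no test of these class differences is given.

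In Prmt1-dKO at P7 only H4R3me2s was profiled. It was found at 0 of the 8 genes in both Prmt1-dKO lists, where 9.79% of protein-coding genes were marked in both. The 2 Prmt1-dKO lists marked 2 and 0 of the 8, and the 2 WT lists 1 each, so the mean was 1.0 in both genotypes, while the mean share of protein-coding genes marked was 33.3% in WT and 25.2% in Prmt1-dKO. Ccnb1ip1 was marked in both WT lists and in 1 Prmt1-dKO list (−log10 p 4.02, 3.40 and 4.32). Msh5 was marked in 1 Prmt1-dKO list (−log10 p 4.30), 1372 bp from an internal start, and in no WT list at P7. None of these peaks had a q of at most 0.01. The WT lists at P7 serve in both H4R3me2s comparisons. No H4R3me2s peak was called at the promoters of Rnf212, Hfm1, Msh4, Mlh3, Msh6 or Exo1 in any P7 list of either genotype.

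**Figure D5:**
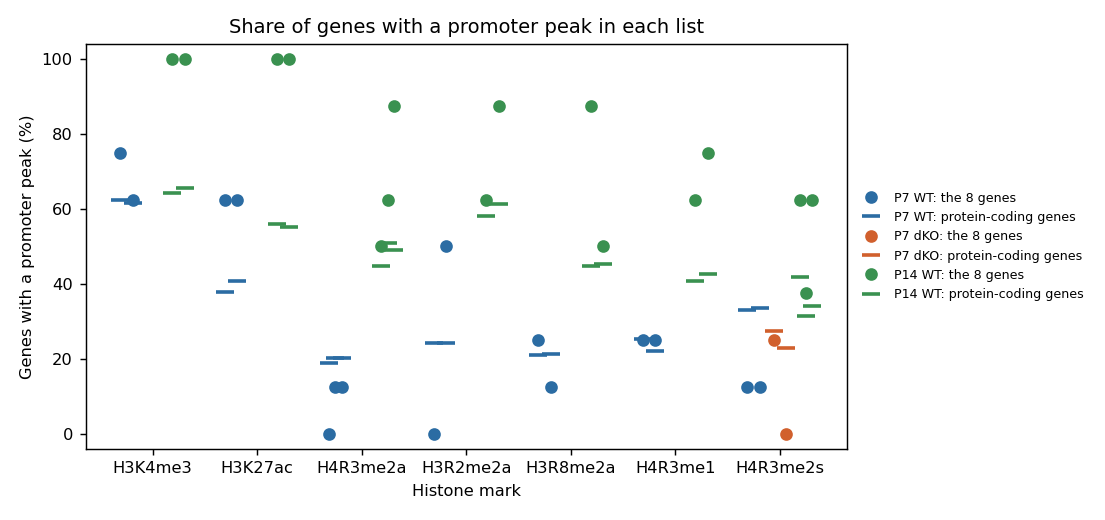
Share (%) of the 8 genes (circles) and of 22028 protein-coding genes (dashes) with a promoter peak in each list, by mark, for WT at P7 (blue), Prmt1-dKO at P7 (orange) and WT at P14 (green). For H3K4me3 and H3K27ac the 8 genes reach 100% at P14, and for every mark both the 8 genes and protein-coding genes are higher at P14 than at P7 except that 1 P14 list of H4R3me2s is at 31.5% of protein-coding genes, below both WT lists at P7.

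The promoters of the genes differ in sequence. RefSeq promoters on GRCm38.p6 were matched for 7 of the 8 genes, all but Exo1, and the 250 bases before each start were searched on both strands for 8 short motifs. The sequences shown are the promoters of Rnf212, the gene called higher in testes, Hfm1, the gene whose difference varied between assays, and Msh6, whose H3K4me3 peak had the highest −log10 p. Last are the 77 bases next to the start of Msh5, which by summit carried both active marks in every list at P14 and in none at P7. The Msh5 print stops at an annotated Msh5 exon, since 46 of its 250 bases are exonic. Its STRA8 core (at -82), GC boxes (at -249 and -160) and CCAAT boxes at -243 and -229 are therefore not shown in full. Rnf212 is at chr5:108775028-108775277 on the minus strand, Hfm1 at chr5:106925891-106926140 on the minus strand, Msh6 at chr17:87974800-87975049 on the plus strand and Msh5 at chr17:35046623-35046699 on the minus strand. Each is written 5′ to 3′ towards the start, with motif matches in capitals.
Rnf212: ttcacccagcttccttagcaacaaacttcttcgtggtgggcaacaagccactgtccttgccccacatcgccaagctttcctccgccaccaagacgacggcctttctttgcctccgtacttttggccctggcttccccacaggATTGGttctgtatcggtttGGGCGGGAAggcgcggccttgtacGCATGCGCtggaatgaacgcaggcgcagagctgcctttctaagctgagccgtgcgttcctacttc
Hfm1: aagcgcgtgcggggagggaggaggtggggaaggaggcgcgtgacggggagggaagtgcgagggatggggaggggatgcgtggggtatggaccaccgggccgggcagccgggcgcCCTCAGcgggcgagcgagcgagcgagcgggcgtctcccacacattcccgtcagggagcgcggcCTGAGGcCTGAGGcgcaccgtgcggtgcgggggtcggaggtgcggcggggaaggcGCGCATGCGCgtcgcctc
Msh6: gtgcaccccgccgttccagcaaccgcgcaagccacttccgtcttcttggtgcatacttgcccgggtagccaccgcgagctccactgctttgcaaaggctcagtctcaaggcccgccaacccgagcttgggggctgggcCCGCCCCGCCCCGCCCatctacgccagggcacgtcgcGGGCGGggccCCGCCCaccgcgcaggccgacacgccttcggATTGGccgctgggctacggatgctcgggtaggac
Msh5: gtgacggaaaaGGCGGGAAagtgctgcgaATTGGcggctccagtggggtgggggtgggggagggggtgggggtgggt

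In capitals are the STRA8 core CCTCAG, the E2F site GGCGGGAA, the NRF1 core GCATGCGC, the GC box GGGCGG and the CCAAT box CCAAT, or their reverse complements. The E2F site of Rnf212 overlaps its GC box, and in Hfm1 overlapping NRF1 core matches on both strands form 1 stretch. The NRF1 core was found in 3 of the 7 promoters (Mlh3, Rnf212 and Hfm1), against 2.26% of all 32851 RefSeq promoters, and the E2F site in 2 (Msh5 and Rnf212), against 1.86%. The STRA8 core was found in 3 (Msh5, Ccnb1ip1 and Hfm1), against 22.3%, the GC box in 3 (Msh5, Rnf212 and Msh6), against 32.7%, and the CCAAT box in 4 (Msh5, Mlh3, Rnf212 and Msh6), against 33.8%. The CRE TGACGTCA (1.55% of promoters), the E-box CACGTG (6.02%) and the MYB site AACNGTT (3.8%) were found in none of the 7, which says only that these letters are not in these windows.

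Base composition also differed. The 250 bases of Hfm1 had 75.6% GC and 34 CpG dinucleotides, those of Msh6 70.8% and 27, and those of Msh5 67.2% and 22, against medians of 52.4% and 6 over all promoters. Rnf212 had 57.6% GC and 16 CpG, and Mlh3 also had 16 CpG. Msh4 and Ccnb1ip1 were the poorest, with 43.6% and 48.8% GC and 4 and 7 CpG. For these 2 genes the H3K4me3 summits did not lie at the RefSeq start, but 856 to 931 bases before it for Msh4 and 11984 to 12386 bases before it for Ccnb1ip1. For the other 5 the summits lay 8 to 330 bases after the RefSeq start.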

How the data were processed

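The authors trimmed reads with fastp 0.23.2, aligned RNA reads to mm10 with STAR and quantified genes with RSEM. The expected counts that the authors deposited for each library are not normalized. The authors scaled the deposited TPM within each library, and their FPKM were not used. Not given in the sources used here: the RSEM version and annotation, the CUT&Tag aligner and any control library. GENCODE vM21 held 55141 of the 55401 gene identifiers, with the version ignored.

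Expected counts were rounded and filtered with filterByExpr (minimum of 10 counts, 15 in total). They were scaled by TMM and tested by genotype within each assay with edgeR 4.0.16 (quasi-likelihood test, R 4.3.3), without a replicate block, and for the interaction over both assays. The authors used DESeq2 at the same FDR and 2-fold thresholds, and DESeq2 1.42.0 served as an alternative. CPM use TMM, and log2 CPM a prior count of 2. Both tools were tested on simulated data first, with a spread for sorted cells set below the fitted one. The simulation therefore does not show how the tools perform at the spread of the sorted libraries.

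The authors called peaks with MACS2 2.1.0 in each sample separately. The lists they deposited give each peak's fold enrichment (a ratio to the local background) and its −log10 p and −log10 q. Summits were placed against transcript starts of 55536 genes, and the share of 22028 protein-coding genes marked is the background of each count of genes. Read depths of the lists are unknown. Alternatives were another scaling, no filter, DESeq2, a replicate block, each library or list left out, a 1000 bp promoter, a q of at most 0.01, whole peaks in place of summits and lists of equal length.

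The genes and gene lists were chosen with earlier results of these data known. Named genes are the 8 genes, Prmt1, genes of the pathway lists called by either tool, and the 5 genes most alike. Promoter sequences are from RefSeq. Other steps used Python 3.11.15, pandas 2.3.3 and matplotlib 3.10.9.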

Additional observations from a re-analysis of the deposited data

Results flagged for a closer look

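Hfm1, the ZMM helicase, was singled out because its difference between the genotypes was not the same in sorted spermatogonia as in whole testes. The log2 fold change of Prmt1-dKO against WT was -2.07 in sorted cells and 0.35 in testes, and the difference of both was -2.34 (SE 0.63, FDR = 0.0327, edgeR interaction test over 19608 genes). Both sorted Prmt1-dKO libraries lay below the sorted WT libraries, and all 3 Prmt1-dKO testes lay above the WT testes in CPM, though not in TPM (1.85 to 2.43 in WT and 2.42 to 3.74 in Prmt1-dKO testes). An interaction at this FDR was found for 3722 of the genes tested, so it is common in these data. All groups had 2 or 3 samples, too few for a test of libraries that stand apart.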

How the results depend on the processing

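In testes, the direction of all 8 genes held under all 11 alternatives, and the Rnf212 call was lost only when a library was left out (FDR 0.0522 to 0.156). Genes called higher (881) came to 1777 without the filter, 1379 with DESeq2 (also unfiltered) and 892 with DESeq2 after the filter, and to 684 to 1048 with a library left out; genes called lower (294) then came to 199 to 401. In sorted cells, edgeR called 0, DESeq2 1238 higher and 664 lower, and DESeq2 after the filter, a setting chosen after seeing the data, 2521 and 977. With a library left out the counts were 0 to 5290 higher and 0 to 2146 lower; the counts above 0 came without WT replicate 1 (5290 and 2146) or 2 (4089 and 2029), where the lone WT library is assumed to vary like the rest. The signs that reversed there were those of Ccnb1ip1 (-0.33 without WT replicate 2, -0.12 without Prmt1-dKO replicate 1, range to 1.48) and Msh6 (-0.39 to 0.021, the highest without Prmt1-dKO replicate 2). The interaction reversed for Ccnb1ip1 (-0.11) and Exo1 (-0.042) without sorted WT replicate 2; the cause was not tested. The range with a sorted WT library left out was -0.73 to -0.38 for Msh4, -2.57 to -1.36 for Msh5, 0.76 to 1.70 for Mlh3, 0.59 to 0.67 for Rnf212, -0.11 to 1.71 for Ccnb1ip1, -2.94 to -1.23 for Hfm1, 0.31 to 0.51 for Msh6 and -0.042 to 0.27 for Exo1.

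Replicate numbers do not pair the samples (correlations of same-numbered deviations 0.08, -0.22 and -0.12 in testes and 0.02 in sorted cells). With a replicate block, 691 genes were higher and 259 lower in testes, Rnf212 stayed called (1.11, FDR = 0.0407) and Msh6 went from FDR = 0.0164 to 0.0644; no call of the 8 genes at 2-fold changed.

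The rise from P7 to P14 in the number of genes marked held in direction for each mark and alternative. It moved beyond the spread between lists with a 1000 bp promoter for H4R3me1 (5.0) and H4R3me2s (2.33), with a q of at most 0.01 for H4R3me2a (2.0), H3R8me2a (2.0), H4R3me1 (2.0), H3K27ac (5.5) and H4R3me2s (0.33), and at equal list length for H4R3me2a (2.67), H4R3me1 (2.5) and H4R3me2s (2.17). Peak lists give no depth, so what depth limits there is unknown.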
